A study of Mus musculus with 12 samples.

Results

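The genes described here are 38 transcripts of macrophages, measured by RNA-seq in whole subcutaneous white adipose tissue (scWAT) of 12 mice. They were taken from a list of names that covers markers of all macrophages, of resident and of lipid-associated macrophages and of monocytes, and the rule applies no threshold on expression. All 38 were found among the 55401 genes counted, and all 38 were among the 16540 genes with enough counts to be tested. The mice were wild-type animals or Jmjd1a HY/HY animals, which carry on both alleles a histidine-to-tyrosine change that removes the histone H3K9 demethylase activity of JMJD1A, on the C57BL/6J background. The change is present in every cell of these animals, macrophages included, and not only in adipocytes, and the females of this genotype came from 1 of the lines made. All mice were females of 16 weeks at the start, were caged singly and spent 1 week at 30°C, a thermoneutral temperature for mice, and then 1 further week at either 30°C or 8°C. There were 3 mice in each of the 4 groups, namely wild-type at 30°C, wild-type at 8°C, HY/HY at 30°C and HY/HY at 8°C.

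Macrophages are phagocytes that live in adipose tissue, where they clear dead adipocytes and take up lipid. They depend on signals through the CSF1 receptor and on the transcription factor PU.1. Resident cells of the tissue typically carry scavenger and lectin receptors such as CD206 (Mrc1) and CD163, whereas cells that gather around lipid-laden or dying adipocytes typically carry TREM2, CD9 and GPNMB. Monocytes recruited from blood carry CCR2, the receptor of the chemokine CCL2. Because RNA came from the whole tissue, more macrophages and more RNA per macrophage cannot be told apart in any value below.

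Libraries held between 13592629 and 26352081 read pairs assigned to genes. Levels are given as CPM, counts scaled to the library size after TMM normalisation, in the order of replicates 1 to 3 of each group. A gene was called where the edgeR quasi-likelihood test gave an adjusted p below 0.05, with adjustment over all 16540 genes, and the fold change was above 1.5 or below 0.67. Ucp1, the uncoupling protein of thermogenic adipocytes, ranged from 5048 to 6055 CPM in the cold-exposed wild-type mice and from 212 to 904 CPM in the cold-exposed HY/HY mice, and did not exceed 4.58 CPM at 30°C. Kdm3a, the symbol of Jmjd1a in the annotation, lay between 35.7 and 61.7 CPM in the 12 libraries, but a count cannot show a change of 1 codon and so does not check the genotype. A pair of libraries stood apart. Replicate 2 of the wild-type mice at 30°C carried transcripts of skeletal muscle, with a summed level of 7 muscle markers of 1038 CPM against 6.37 to 24.5 CPM in the other 11 libraries. Replicate 1 of the HY/HY mice at 30°C was the highest of its group for 31 of the 38 macrophage genes (81.6%), whereas it was the highest for 31.8% of all genes tested.

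The tissue contained macrophage transcripts in every library: none of the 38 genes was at 0 in any mouse, with counts from 7 for Timd4 to 44712 for Ctsb. Per kilobase of exon, the cathepsins Ctsb and Ctsd were the highest, with means over the 12 libraries of 334 and 276 CPM per kilobase. Retnla, Cd9, Lyz2 and Lgals3 followed between 53.0 and 103 CPM per kilobase, and C1qa, C1qb, Tyrobp and C1qc between 19.5 and 37.9. Ctsb, Ctsd, Cd9 and Lgals3 are also made by many other cell types, adipocytes included, so their levels are not those of macrophages alone. At the other end, Itgam, Timd4, Cx3cr1 and Trem2 were between 0.244 and 0.507 CPM per kilobase, and the mean count of Trem2 was 23.3 and that of Timd4 21.1. Values per kilobase depend on the exon length used, all exons of a gene together, which for Trem2 was 4946 bases. In CPM Trem2 (1.21) was above Timd4 (1.08). Of all 38, Csf1r had the smallest share of read pairs on the counted strand, 80.8%, followed by Cx3cr1 at 88.3% and Cd163 at 91.3%, and pairs of the opposite strand did not enter the levels.

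Starts of 6 of the 8 genes that were called in a comparison of 2 groups are printed here, since these genes are the ones on which those comparisons turn. Csf1r is not printed, and Fcgr3 was left out because its 2 overlapping windows lie well inside the coordinates given for the gene. Each line holds the 250 bases before the transcription start in RefSeq (build GRCm38.p6), read 5′ to 3′ on the strand of the gene. The start used for Cd163 and C1qc lies inside the outermost bounds that RefSeq gives for these genes, so that the last 15 and 22 bases of their windows fall within the gene coordinates printed further on. Capitals mark the letters GAGGAAG and AGGAAGT, which share 6 bases and together spell variants of the purine-rich site of PU.1, and the letters CACGTG, the core of the site of MITF and TFE factors. Both strands were searched, so a match may be printed as its reverse complement CTTCCTC or ACTTCCT.
Mrc1, chr2:14229164-14229413, plus strand: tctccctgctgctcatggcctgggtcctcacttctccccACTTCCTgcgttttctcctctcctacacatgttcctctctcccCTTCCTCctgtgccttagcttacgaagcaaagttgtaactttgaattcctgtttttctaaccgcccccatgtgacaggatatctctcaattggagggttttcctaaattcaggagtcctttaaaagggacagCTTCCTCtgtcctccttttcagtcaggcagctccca
Gpnmb, chr6:49036268-49036517, plus strand: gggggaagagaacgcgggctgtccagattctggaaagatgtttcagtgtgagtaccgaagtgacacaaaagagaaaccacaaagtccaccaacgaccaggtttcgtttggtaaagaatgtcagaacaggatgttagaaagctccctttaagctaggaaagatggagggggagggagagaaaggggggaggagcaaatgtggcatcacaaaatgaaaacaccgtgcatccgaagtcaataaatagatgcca
Cd53, chr3:106790150-106790399, minus strand: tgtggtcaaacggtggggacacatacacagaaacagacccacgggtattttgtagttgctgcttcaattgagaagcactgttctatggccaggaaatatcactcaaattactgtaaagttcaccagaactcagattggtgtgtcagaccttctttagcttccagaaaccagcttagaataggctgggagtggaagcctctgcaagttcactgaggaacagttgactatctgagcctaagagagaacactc
Cd163, chr6:124304401-124304650, plus strand: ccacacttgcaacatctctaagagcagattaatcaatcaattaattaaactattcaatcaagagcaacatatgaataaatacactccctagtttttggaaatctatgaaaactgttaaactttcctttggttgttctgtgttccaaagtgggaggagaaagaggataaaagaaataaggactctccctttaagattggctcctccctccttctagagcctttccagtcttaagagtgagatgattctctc
C1qc, chr4:136892915-136893164, minus strand: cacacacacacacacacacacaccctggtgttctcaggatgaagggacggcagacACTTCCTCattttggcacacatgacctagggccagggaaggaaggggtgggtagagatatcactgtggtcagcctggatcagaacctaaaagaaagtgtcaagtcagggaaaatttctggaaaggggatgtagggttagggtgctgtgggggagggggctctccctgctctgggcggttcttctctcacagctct
Ctsd, chr7:142387828-142388077, minus strand: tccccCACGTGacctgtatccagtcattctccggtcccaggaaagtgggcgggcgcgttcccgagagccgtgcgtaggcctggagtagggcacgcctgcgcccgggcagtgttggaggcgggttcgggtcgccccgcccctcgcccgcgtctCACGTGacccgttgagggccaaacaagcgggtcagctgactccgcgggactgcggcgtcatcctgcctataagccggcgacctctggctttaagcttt

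A window was available for 28 of the 38 genes, with 31 windows in all because some genes have several starts. GAGGAAG was present in 9 of the 31 windows (29.0%) and in 10.6% of all 32851 windows of the same length. AGGAAGT was present in 11 (35.5%) against 7.69% of all windows, and 1 or both of these motifs were found in 16 (51.6%) against 15.4%. Mrc1 held 3 matches, whose first bases lay 211, 168 and 36 bases upstream of it, and C1qc held 2 overlapping ones from 195 bases before it. None of these letters occurred in the windows of Gpnmb, Cd53 and Cd163, while GAGGAAG was present for Fcgr3, whose windows are not printed. CACGTG was found in 1 of the 31 windows (3.23%), that of Ctsd with 2 matches, and in 6.02% of all windows. These are descriptions of letters in a fixed window and were not related to any measured level.

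In the cold, macrophage transcripts were mostly higher in HY/HY mice than in wild-type mice. Of the 38 genes, 35 had a higher fitted level in HY/HY mice (51.3% of all genes tested did), with a median log2 difference of 0.54 (0.01 over all genes). Called higher were 7 genes: the receptors Mrc1, Csf1r, Cd163 and Fcgr3, the glycoprotein Gpnmb, the tetraspanin Cd53 and the complement gene C1qc. Over all genes 1.51% were called higher. None of the 38 was called lower by edgeR, where 4.42% of all genes were, and none was lower at an unadjusted p below 0.05 (13% of all genes) or in DESeq2. In 21 of the 38 genes all 3 HY/HY mice were above all 3 wild-type mice, as for 16.4% of all genes, and an unadjusted p below 0.05 with a higher level was found in 18 (9.34% of all genes). Only Cd9, Ctsd and Ccl2 had lower fitted levels, and among them the groups did not overlap for Ctsd (all 3 HY/HY mice were below for 19% of all genes).

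**Figure D1:**
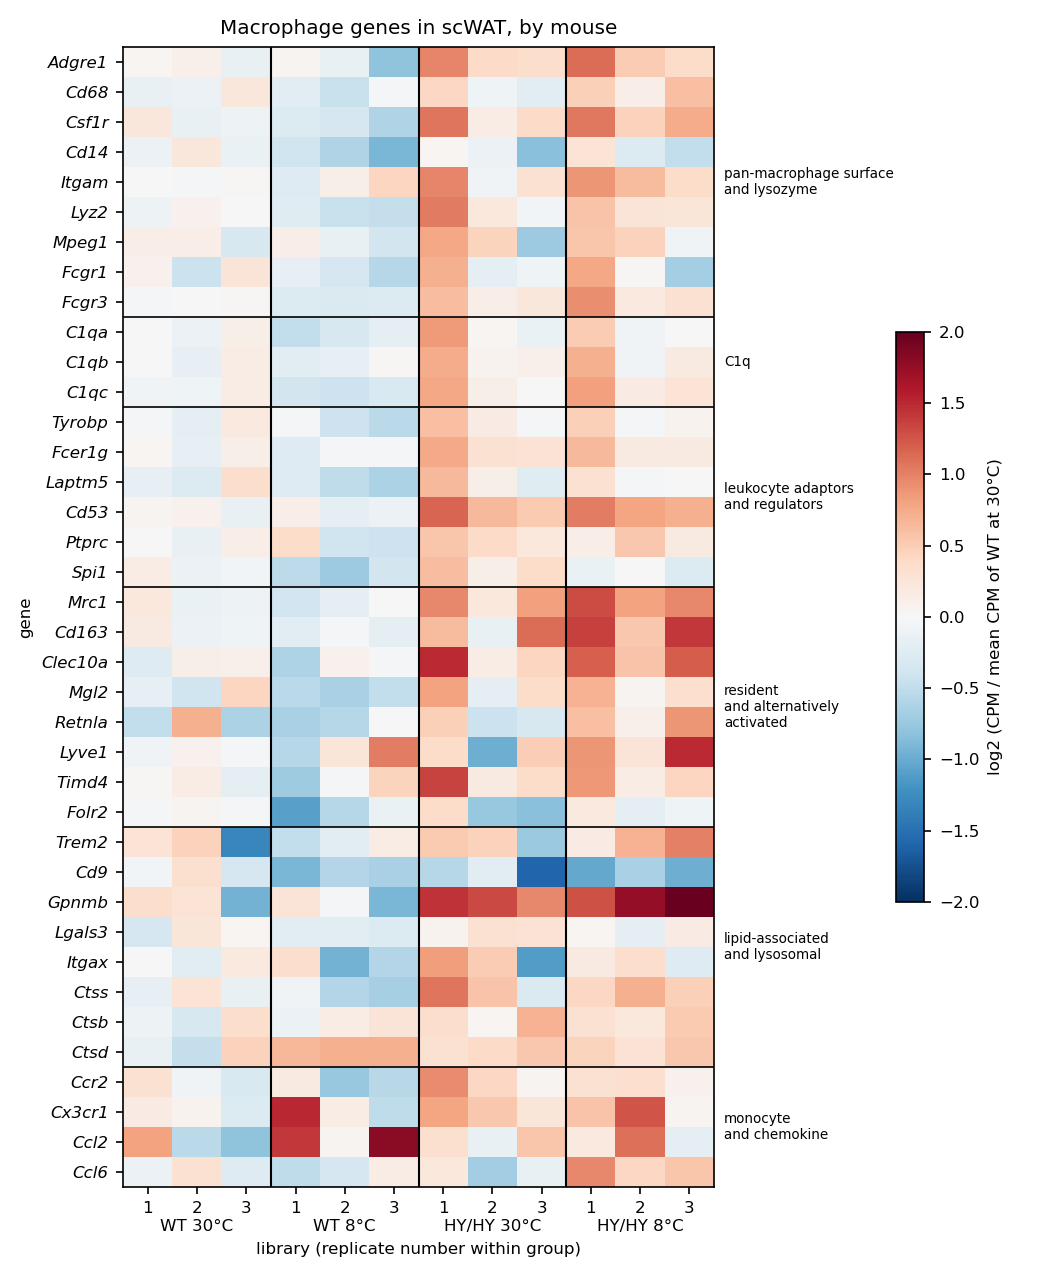
Level of each of the 38 macrophage genes (rows, ordered by role) in each of the 12 mice (columns, 3 per group), as log2 of the CPM over the mean CPM of wild-type mice at 30°C; red is higher and blue lower. Most rows are red in the 3 HY/HY mice at 8°C, pale blue in the 3 wild-type mice at 8°C, and reddest within the HY/HY mice at 30°C in replicate 1.

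Among genes of resident and alternatively activated macrophages, all 8 had higher fitted levels in HY/HY mice at 8°C, with a median log2 difference of 0.94, and 2 were called. Mrc1 (chr2:14229414-14332023), the mannose receptor CD206, was at 14.2, 16.1 and 18.5 CPM in wild-type mice at 8°C and at 45.6, 32.3 and 36.1 CPM in HY/HY mice at 8°C. The lowest HY/HY mouse was thus well above the highest wild-type mouse, and Mrc1 rose by a log2 fold change of 1.22 (SE 0.20, edgeR adjusted p = 0.00534). At 30°C Mrc1 was at 21.4, 16.8 and 17.3 CPM in wild-type mice and at 36.1, 21.5 and 32.5 CPM in HY/HY mice, and the groups did not overlap there either. Cd163 (chr6:124304636-124330529), the haptoglobin-haemoglobin scavenger receptor, was at 8.69, 9.88 and 8.79 CPM in wild-type mice and at 25.9, 14.6 and 26.8 CPM in HY/HY mice at 8°C. It rose by 1.30 on the log2 scale (SE 0.30, adjusted p = 0.0225), and replicate 2 of the HY/HY mice was the one nearest to the wild-type mice.

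The other members of the resident group were not called by edgeR, whereas DESeq2 called Clec10a and Mgl2 higher (2.45% of all genes). Clec10a, a galactose-type lectin, was at 10.6, 17.0 and 15.8 CPM in wild-type mice and at 36.9, 24.0 and 37.4 CPM in HY/HY mice at 8°C. Its neighbour Mgl2, a closely related lectin, was at 14.6, 13.4 and 15.0 CPM against 34.1, 21.8 and 26.5 CPM. For both lectins the groups did not overlap; reads that match both genes equally were not counted, so their split is uncertain. Retnla, the resistin-like secreted protein of alternatively activated macrophages, was at 36.9, 38.9 and 58.2 CPM in wild-type mice and at 88.2, 62.3 and 107 CPM in HY/HY mice at 8°C. Lyve1, the hyaluronan receptor shared with lymphatic endothelium, was at 2.01, 3.55 and 6.09 CPM against 5.50, 3.56 and 8.36 CPM, so that its groups overlapped. Overlap was also seen for Timd4, a phosphatidylserine receptor, between 0.520 and 1.15 CPM in wild-type mice and between 0.938 and 1.55 CPM in HY/HY mice, and for the folate receptor Folr2, between 7.06 and 13.6 CPM and between 13.0 and 17.0 CPM.

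Of 9 genes of macrophages in general, all had higher fitted levels in HY/HY mice at 8°C, with a median log2 difference of 0.64, and 2 were called. Csf1r (chr18:61105572-61131139), the receptor of the growth factors CSF1 and IL-34, was at 22.9, 22.1 and 18.3 CPM in wild-type mice and at 58.0, 38.4 and 46.4 CPM in HY/HY mice at 8°C. It rose by 1.17 on the log2 scale (SE 0.23, adjusted p = 0.0119) with no overlap. Fcgr3 (chr1:171051169-171065915), a low-affinity receptor of IgG, was nearly equal in the wild-type mice at 8°C, at 8.92, 8.90 and 8.92 CPM, and was at 20.5, 12.4 and 13.4 CPM in HY/HY mice. It rose by 0.79 (SE 0.19, adjusted p = 0.0292), with the highest level in replicate 1. Fcgr3 is similar in sequence to other Fc receptor genes, and reads placed equally well in several genes were not counted.

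The remaining 7 genes of this group were not called by edgeR, whereas DESeq2 called Adgre1 and Lyz2 higher (2.45% of all genes). Adgre1, which encodes F4/80, was at 7.58, 6.56 and 4.17 CPM in wild-type mice and at 15.8, 10.3 and 9.34 CPM in HY/HY mice at 8°C. Lyz2, lysozyme, was at 77.9, 67.7 and 66.1 CPM against 137, 110 and 109 CPM, and the endosomal glycoprotein Cd68 at 10.1, 8.60 and 11.3 CPM against 16.3, 12.8 and 17.8 CPM. In each of these 3 genes every HY/HY mouse was above every wild-type mouse. Cd14, the coreceptor for bacterial lipopolysaccharide, was between 14.2 and 20.5 CPM in wild-type mice and between 19.1 and 32.5 CPM in HY/HY mice. Groups overlapped for Cd14 and also for the pore-forming protein Mpeg1, the integrin Itgam and the high-affinity IgG receptor Fcgr1. Lyz2 has a near-identical neighbour, Lyz1, and pairs shared by both were not counted.

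The chains of C1q, the recognition unit of the classical complement pathway that macrophages secrete, are encoded by 3 adjacent genes on chromosome 4. C1qc (chr4:136889801-136892936) was at 26.6, 25.5 and 27.6 CPM in wild-type mice at 8°C and at 60.3, 38.4 and 41.5 CPM in HY/HY mice, and rose by 0.81 on the log2 scale (SE 0.21, adjusted p = 0.0357). C1qa was at 26.9, 30.2 and 33.2 CPM against 53.5, 35.9 and 38.2 CPM, and C1qb at 27.9, 28.8 and 32.8 CPM against 53.1, 30.9 and 36.6 CPM. Replicate 1 of the HY/HY mice was the highest for all 3 chains, the groups overlapped for C1qb, and neither C1qa nor C1qb was called.

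Adaptors and regulators of leukocytes had higher fitted levels in HY/HY mice at 8°C in all 6 cases, with a median of 0.48 and 1 called gene. Cd53 (chr3:106758861-106790149), a tetraspanin of leukocytes, was at 6.24, 4.98 and 5.26 CPM in wild-type mice and at 11.6, 9.88 and 9.34 CPM in HY/HY mice. It rose by 0.90 (SE 0.19, adjusted p = 0.0159). Groups did not overlap either for the Fc receptor gamma chain Fcer1g, between 8.47 and 9.82 CPM and between 11.4 and 15.9 CPM, or for Laptm5, a lysosomal protein of blood cells, between 19.4 and 25.1 CPM and between 29.6 and 36.8 CPM. Spi1, which encodes PU.1, was at 3.42, 2.94 and 3.78 CPM in wild-type mice and at 4.47, 4.88 and 4.06 CPM in HY/HY mice, again without overlap and not called. For Tyrobp, the adaptor DAP12, and Ptprc, the leukocyte phosphatase CD45, the groups overlapped through 1 wild-type mouse, replicate 1.

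Lipid-associated and lysosomal genes did not move as 1 group. Gpnmb (chr6:49036518-49058182), a transmembrane glycoprotein of lysosome-rich macrophages, showed the largest fold of the 38 genes at 8°C. It was at 6.24, 5.05 and 2.76 CPM in wild-type mice and at 12.6, 17.6 and 20.6 CPM in HY/HY mice, and rose by 1.86 (SE 0.35, adjusted p = 0.0104). The cysteine protease Ctss was at 18.9, 13.1 and 12.4 CPM against 26.4, 32.6 and 27.7 CPM, without overlap. DESeq2 called Ctss higher (2.45% of all genes) and edgeR did not. Trem2, a lipid receptor, was at 0.743, 0.905 and 1.15 CPM against 1.17, 1.69 and 2.11 CPM, levels that rest on few reads. By contrast Cd9, a tetraspanin, was between 157 and 197 CPM in wild-type mice and between 145 and 189 CPM in HY/HY mice, and the aspartic protease Ctsd was between 830 and 862 CPM in wild-type mice and between 641 and 762 CPM in HY/HY mice. Ctsb, a further cathepsin, the lectin Lgals3 and the integrin Itgax had fitted log2 differences between 0.24 and 0.41. The median over the 8 genes was 0.33.

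No gene of the monocyte and chemokine group was called at 8°C by edgeR, whereas DESeq2 called Ccl6 higher (2.45% of all genes). Ccl6, a chemokine of myeloid cells, was at 13.2, 14.9 and 20.9 CPM in wild-type mice and at 36.8, 24.9 and 27.7 CPM in HY/HY mice, with no overlap. Ccr2 was at 9.66, 5.05 and 5.84 CPM against 10.6, 10.8 and 9.09 CPM. Cx3cr1, the fractalkine receptor, and Ccl2 varied widely among the wild-type mice, from 0.770 to 3.12 CPM and from 1.36 to 4.55 CPM, and the HY/HY mice lay within those ranges for Cx3cr1 but not for Ccl2, of which 1 mouse was at 1.14 CPM. Ccl2 had the lowest fitted difference of the 38 genes, -0.78 on the log2 scale, from 14 to 71 counts per library.

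**Figure D2:**
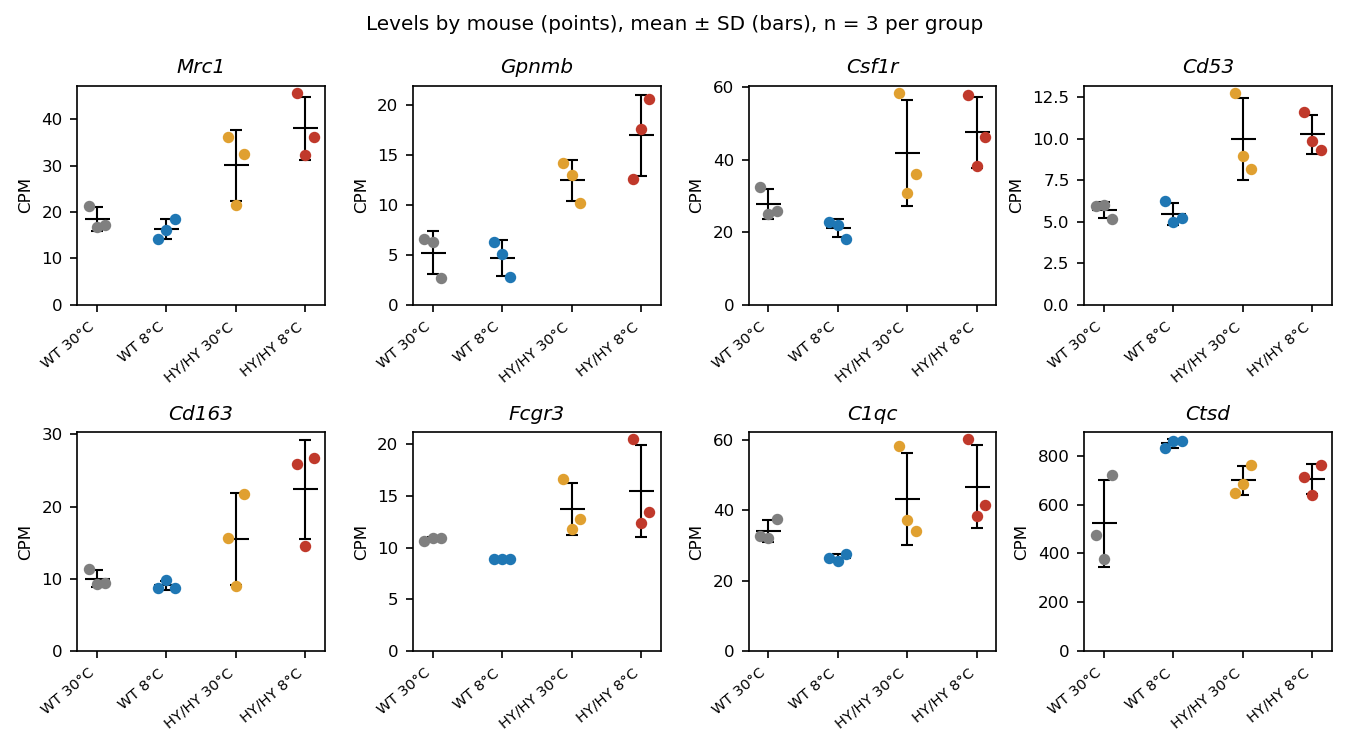
CPM in each mouse (points) of the 8 genes called between genotypes at a single temperature or between temperatures within a genotype. Bars give the group mean and SD (n = 3 per group), on linear axes from 0. For the 7 genes called between genotypes at 8°C every HY/HY mouse at 8°C lies above every wild-type mouse at 8°C, and for Ctsd the wild-type mice at 8°C, between 830 and 862 CPM, are above all others.

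The number of genes called at 8°C depended on single mice. Without replicate 3 of the wild-type mice or replicate 1 of the HY/HY mice at 8°C, 2 of the 38 genes were called, Mrc1 and Gpnmb, where 0.466% and 0.401% of all genes were called higher in place of 1.51%. It was 3 without replicate 2 (0.259% of all genes) and 4 without replicate 1 (0.625%) of the wild-type mice at 8°C, 4 without replicate 3 of the HY/HY mice at 8°C (0.254%), and within the HY/HY group at 30°C it was 11 without replicate 3 (2.41%) and 14 without replicate 1 (1.71%). The calls over all genes thus moved with the library left out as well. Mrc1 and Gpnmb were called in all 20 alternative settings run for them, with adjusted p between 5.05e-06 and 0.0303 and between 1.42e-05 and 0.0488. Across those settings the number of the 38 with a higher fitted level was 34 or 35, or 33 where 36 genes could be tested.

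Levels of other cell types differed between the same mice. At 8°C the summed level of 12 macrophage markers, all among the 38 genes, was between 254 and 272 CPM in wild-type mice and between 375 and 524 CPM in HY/HY mice. The 6 markers of fibroblast progenitors summed to between 795 and 878 CPM against 1111 and 1665 CPM, carried by the proteoglycan gene Dcn (308 ± 50.2 and 684 ± 170 CPM, SD, n = 3, called higher), while 2 of the 6 had lower fitted levels. The 9 of B cells summed to between 33.9 and 59.2 CPM against 71.6 and 243 CPM, mostly from the immunoglobulin gene Ighm, and 5 of the 8 tested had lower fitted levels. The 5 of plasma cells summed to between 170 and 242 CPM against 250 and 315 CPM, mostly from Xbp1, a transcription factor of many secretory cells (164 ± 35.4 and 235 ± 30.3 CPM), whereas Sdc1 was at 38.4 ± 5.66 and 36.2 ± 7.49 CPM. Endothelial markers (5 genes) were lower in HY/HY mice, between 649 and 853 CPM where wild-type mice were between 855 and 1161 CPM. Dendritic cell markers (9 genes) were lower too, between 67.9 and 103 CPM where wild-type mice were between 107 and 138 CPM, mostly from Fscn1 and Zbtb46. Sums without overlap and lower in HY/HY mice were also found for mammary epithelium (10 genes, 973 to 1495 CPM where wild-type mice were at 1535 to 1661 CPM), erythrocytes (3 genes, 91.0 to 175 CPM and 184 to 245 CPM) and skeletal muscle (7 genes, 9.01 to 14.8 CPM and 17.5 to 19.9 CPM). Not all genes of these lists went that way. Of 8 mammary markers tested 4 had higher and 4 lower fitted levels, with a median of 0.06; the sum followed the keratins Krt8 and Krt18, whereas the casein Csn3 was at 65.1 ± 10.6 CPM in wild-type and 134 ± 34.0 CPM in HY/HY mice (SD, n = 3, not called). Of 6 muscle markers tested 5 were lower and Acta1 was at 1.66 ± 0.672 and 6.91 ± 2.32 CPM. The 6 markers of monocytes summed to between 23.6 and 35.3 CPM in HY/HY mice, a range that held all 3 wild-type mice. The 8 of mast cells summed to between 47.2 and 74.4 CPM in wild-type and between 59.5 and 85.0 CPM in HY/HY mice, which overlapped, and 5 of the 6 tested had higher fitted levels in HY/HY mice, with a median of 0.62 and none called. The ranges also overlapped for the 10 of T cells (7.31 to 13.5 CPM against 10.1 to 10.9 CPM), the 9 of neutrophils (3.02 to 4.30 CPM against 3.41 to 5.83 CPM) and the 8 of adipocytes (30856 to 38834 CPM against 38037 to 52024 CPM). Each of the 8 adipocyte markers nevertheless had a higher fitted level in HY/HY mice, with a median of 0.37 and 4 of them without overlap, and Lep, the gene of the hormone leptin, was called higher (113 ± 39.2 and 449 ± 220 CPM; log2 difference 1.99, SE 0.47, edgeR adjusted p = 0.0266). Among eosinophil markers, Epx was at 0 in all 12 libraries. The 4 matched eosinophil markers summed to between 0.194 and 0.688 CPM in HY/HY mice and between 1.03 and 1.26 CPM in wild-type mice, lower and without overlap on few reads. For lymph node stroma (7 genes) the sums overlapped, at 1.44 to 4.06 CPM and 2.69 to 4.76 CPM, and Madcam1 was called lower in HY/HY mice (log2 difference -3.02). The chemokine Cxcl13 of the same list went the other way on few reads, from 0.0743 to 0.128 CPM in wild-type and from 0.313 to 2.84 CPM in HY/HY mice, without overlap and not called. The part of these cell types in the genotype differences was not tested.

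At thermoneutrality (30°C) none of the 38 genes was called between genotypes by edgeR, where 0.562% of all genes were called higher and 0.441% lower. An unadjusted p below 0.05 was found for 7 genes that were higher (8.36% of all genes) and for 1, Cd9, that was lower (10.3%). DESeq2 called 3 higher (Cd53, Gpnmb and Mrc1), where it called 2.16% of all genes higher. Fitted levels were higher in HY/HY mice for 33 of the 38 genes (49.0% of all genes), with a median of 0.36 (-0.01 over all genes). In 10 genes every HY/HY mouse was above every wild-type mouse (7.66% of all genes). Markers of other cells differed between the same groups, although edgeR called none of them at 30°C. Mammary markers had lower fitted levels in HY/HY mice in 7 of 8 cases (3 at an unadjusted p below 0.05), with sums of 581 to 1741 CPM against 2167 to 3809 CPM in wild-type mice. All 6 muscle markers tested were lower at an unadjusted p below 0.05, against a wild-type group that holds the library with muscle transcripts. Ighm was at 222 ± 137 CPM in HY/HY and 47.1 ± 19.9 CPM in wild-type mice (SD, n = 3), a log2 difference of 2.24 (edgeR adjusted p = 0.0880). Their part in the values of the 38 genes was not tested.

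The smallest p at 30°C belonged to genes that were also higher at 8°C. Cd53 was at 5.94, 6.03 and 5.16 CPM in wild-type mice and at 12.8, 8.95 and 8.21 CPM in HY/HY mice, a log2 difference of 0.81 (SE 0.18, edgeR adjusted p = 0.0591). Gpnmb was at 6.62, 6.31 and 2.71 CPM against 14.2, 13.0 and 10.2 CPM, with 1.25 (SE 0.34, adjusted p = 0.0895). Mrc1, with the values given above, differed by 0.70 (SE 0.20, adjusted p = 0.0989). Fcer1g was at 10.4, 8.98 and 10.9 CPM against 17.0, 12.4 and 12.3 CPM, with 0.47 (SE 0.17, adjusted p = 0.185). All 4 were without overlap between groups, and none passed the threshold.

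These differences at 30°C were carried in part by 1 mouse. Replicate 1 of the HY/HY group was at 58.4 CPM of Csf1r against 30.8 and 36.2 CPM in the other two mice, at 189 CPM of Lyz2 against 107 and 89.0 CPM, at 68.1 CPM of C1qa against 38.8 and 34.4 CPM, and at 45.6 CPM of Clec10a against 17.8 and 21.7 CPM. Without it, 25 of the 38 genes had higher fitted levels in HY/HY mice and the median was 0.15 in place of 0.36. The same library had the highest summed levels of its group in markers of B cells (364 CPM, with 79.5 and 255 CPM in the other mice), fibroblast progenitors (1814 CPM, with 1147 and 873 CPM) and lymph node stroma (17.2 CPM, with 1.24 and 0.676 CPM). It was also highest for dendritic cells (124 CPM, with 79.8 and 75.8 CPM), monocytes (49.5 CPM, with 32.7 and 33.3 CPM) and T cells (22.5 CPM, with 17.1 and 9.98 CPM). Neutrophils, mast cells, eosinophils, plasma cells and endothelium had their highest sums there too, but adipocytes, mammary epithelium, skeletal muscle and erythrocytes did not. The part of these transcripts in the values of that mouse was not tested. The median coefficient of variation of the 38 genes was 30.9% in this group (18.0% over all genes), compared with 14.5% in wild-type mice at 30°C, 15.7% in wild-type mice at 8°C and 20.7% in HY/HY mice at 8°C.

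The other genes at 30°C are given by role, wild-type mice first. Csf1r was at 32.5 and 25.8 CPM in replicates 1 and 3 and lowest in replicate 2 against the HY/HY values just given, so that the lowest HY/HY mouse, at 30.8 CPM, lay below the highest wild-type mouse. Adgre1 was at 7.43, 7.83 and 6.54 CPM against 14.3, 9.50 and 9.30 CPM, and Fcgr3 at 10.6, 10.9 and 10.9 CPM against 16.6, 11.8 and 12.7 CPM. In both the groups were apart, although for Fcgr3 the gap was small. Cd68 was at 10.6, 10.7 and 13.7 CPM against 15.6, 11.0 and 9.93 CPM, Mpeg1 at 18.7, 18.8 and 13.7 CPM against 29.0, 23.2 and 10.3 CPM, and C1qc at 32.7, 32.1 and 37.7 CPM against 58.2, 37.2 and 34.1 CPM. These 3 genes overlapped between genotypes, as did C1qa and C1qb.

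Resident genes at 30°C varied most within the HY/HY group. Cd163 was at 11.4, 9.31 and 9.51 CPM in wild-type mice against 15.7, 9.09 and 21.8 CPM, and here replicate 3, not replicate 1, was the highest. Folr2 was at 14.5, 15.6 and 14.7 CPM against 19.3, 8.78 and 8.37 CPM, so that the HY/HY mice lay on both sides of the wild-type mice. Retnla was at 41.1, 95.5 and 37.6 CPM against 81.1, 43.2 and 46.7 CPM, and its highest level was in the wild-type library with muscle transcripts. Of the lipid-associated genes, Cd9 was at 284, 368 and 233 CPM against 199, 256 and 98.7 CPM and Ctss at 17.6, 24.0 and 17.8 CPM against 41.6, 29.3 and 16.3 CPM. Lgals3 was at 77.1, 116 and 101 CPM against 103, 121 and 120 CPM, and all 3 overlapped. Ccr2 was at 10.6, 8.19 and 6.91 CPM against 16.4, 11.4 and 8.84 CPM, whereas Cx3cr1, at 1.22, 1.15 and 0.903 CPM against 1.90, 1.58 and 1.30 CPM, was without overlap on few reads.

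**Figure D3:**
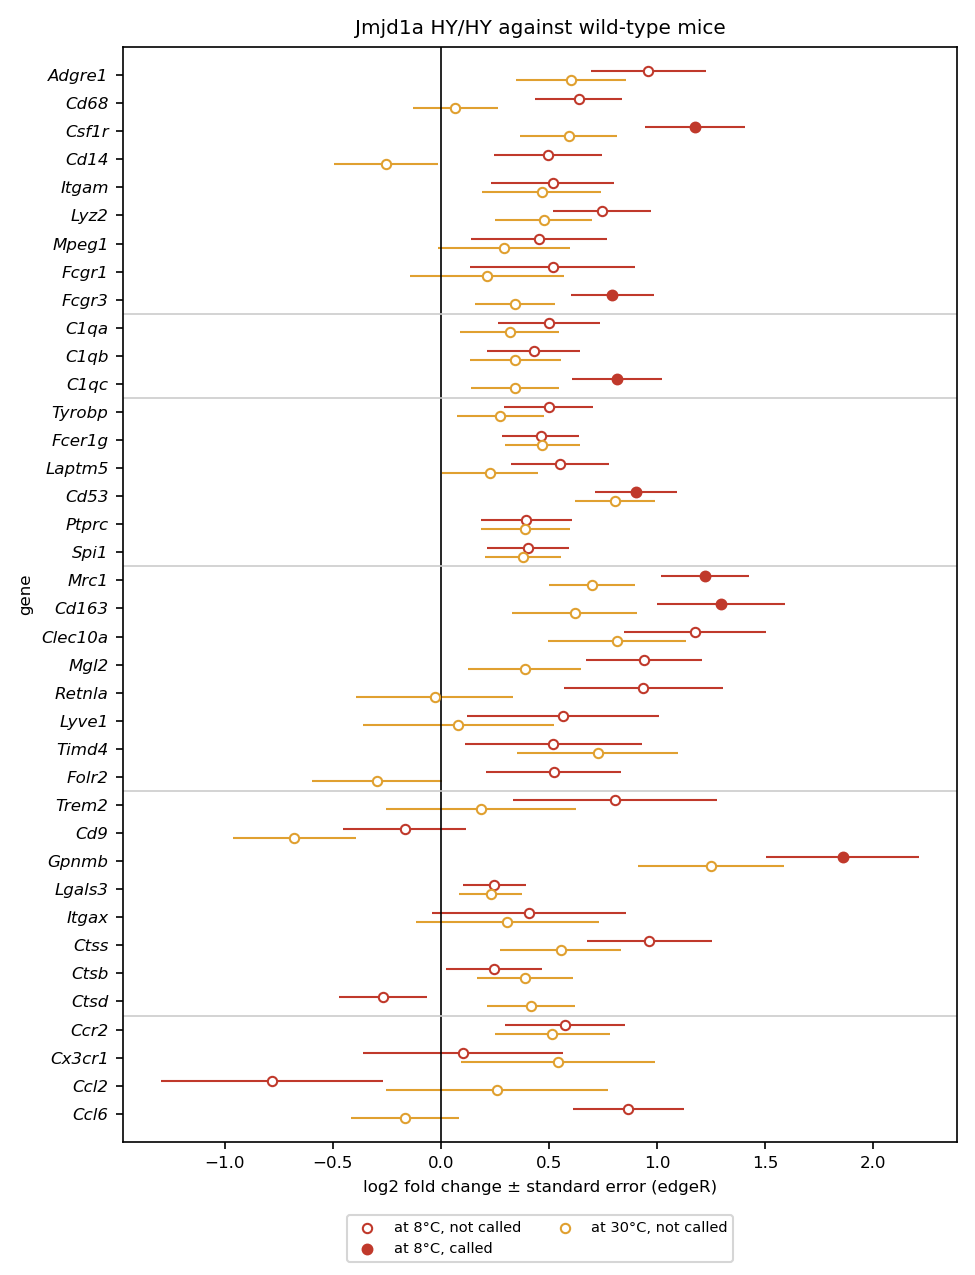
Fitted log2 fold change of HY/HY over wild-type mice for each of the 38 genes at 8°C (red) and at 30°C (orange), with standard errors from edgeR; filled points passed the threshold. Of the points at 8°C, 35 are right of 0 and 7 are filled, and of those at 30°C, 33 are right of 0 and none is filled.

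Over both temperatures, in a comparison chosen after seeing the data, 36 of the 38 genes had higher fitted levels in HY/HY mice (48.3% of all genes), with a median log2 difference of 0.40. Called higher were 9 genes, namely Mrc1, Cd53, Gpnmb, Csf1r, Cd163, Clec10a, Adgre1, Lyz2 and Ctss, where 2.13% of all genes were called higher. None was called lower by edgeR (2.27% of all genes) and none was lower at an unadjusted p below 0.05 (14.7%), whereas 24 were higher at that level (11.4%). Mrc1 differed by 0.96 (SE 0.14, edgeR adjusted p = 0.00577), Cd53 by 0.85 (SE 0.13, adjusted p = 0.00638) and Gpnmb by 1.55 (SE 0.24, adjusted p = 0.00670). Fcgr3 (log2 difference 0.57, adjusted p = 0.0274) and C1qc (0.58, adjusted p = 0.0340), called at 8°C, did not reach the fold of 1.5 here. Of the markers of other cells, Ighm (B cells), Dcn and Pdgfra (fibroblast progenitors) and Lep (adipocytes) were called higher too, and Krt8 and Krt18 (mammary epithelium), Myh4 and Mb (skeletal muscle) and Madcam1 (lymph node stroma) lower, and their part in these values was not tested. DESeq2 was not run for this comparison.

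Cold exposure of wild-type mice was accompanied by small differences in these genes. Fitted levels were lower at 8°C for 32 of the 38 genes, with a median of -0.23 (-0.07 over all genes), and 44.3% of all genes had higher levels. Only Ctsd (chr7:142375910-142387827), a lysosomal protease of many cell types, was called higher, where 10.3% of all genes were. It went from 475, 376 and 722 CPM at 30°C to 830, 860 and 862 CPM at 8°C and rose by 0.70 (SE 0.20, edgeR adjusted p = 0.0287). The lowest mouse at 30°C was replicate 2, the library with muscle transcripts, and without it Ctsd was at a log2 difference of 0.51 and was not called (adjusted p = 0.0983). Ctsd was also not called without replicate 1 of the wild-type mice at 30°C, or without any 1 of the 3 wild-type mice at 8°C (adjusted p from 0.0620 to 0.0923 in these 4 fits). In its place Ccl2 was called higher without replicate 1 at 30°C (log2 difference 1.92, adjusted p = 0.0334) and without replicate 2 at 8°C (1.63, adjusted p = 0.0498). None of the 38 was called lower by edgeR or DESeq2, where edgeR called 6.93% of all genes lower, and 3 (Cd14, Spi1 and Cd9) were lower at an unadjusted p below 0.05, as were 20.2% of all genes. Every mouse at 8°C was below every mouse at 30°C for 10 of the 38 genes (22.7% of all genes), namely Csf1r, Cd14, Lyz2, Fcgr3, C1qa, C1qc, Spi1, Mgl2, Folr2 and Cd9.

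Markers of other cells differed between the same wild-type mice. The sum of the 10 T cell markers was between 13.9 and 30.1 CPM at 30°C and between 7.31 and 13.5 CPM at 8°C; all 10 had lower fitted levels at 8°C, with a median of -1.13, 7 at an unadjusted p below 0.05 and 1 called (Cd2). Endothelial markers were higher at 8°C, with 4 of 5 called, and 4 of 6 skeletal muscle markers were called lower, against a group at 30°C that holds the library with muscle transcripts. Single markers of further lists were also called, lower for Plac8, Xbp1, Epcam, Ly6a, Cfd and Lep and higher for Zbtb46, S100a8 and Madcam1. Their part in the values of the 38 genes was not tested.

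The smallest p after Ctsd were those of Spi1, Cd14 and Ccl2. Spi1 was at 5.44, 4.51 and 4.73 CPM at 30°C and at 3.42, 2.94 and 3.78 CPM at 8°C in wild-type mice, without overlap (log2 difference -0.53, SE 0.19, adjusted p = 0.0578). Cd14 was at 24.7, 31.3 and 24.6 CPM against 20.5, 17.8 and 14.2 CPM, also without overlap (-0.62, SE 0.25, adjusted p = 0.0863). Ccl2 had the opposite sign, at 2.27, 0.902 and 0.744 CPM against 3.49, 1.36 and 4.55 CPM, with overlap (1.27, SE 0.51, adjusted p = 0.0901). How these levels compare depended on the scaling. With library totals in place of TMM the median over all genes went from -0.07 to -0.41, and 8 of the 38 genes were called lower (25.1% of all genes in that fit) and none higher (6.39%); the median of the 38 was then -0.57.

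In HY/HY mice none of the 38 genes was called between 8°C and 30°C by edgeR or DESeq2, where edgeR called 0.181% of all genes higher and 0.0665% lower. At an unadjusted p below 0.05, 1 was higher (7.65% of all genes) and 1 lower (7.01%). Fitted levels were higher at 8°C for 21 genes (47.8% of all genes) and lower for 17, with a median of 0.04. Ccl6 was at 21.8, 11.7 and 16.9 CPM at 30°C and at 36.8, 24.9 and 27.7 CPM at 8°C, without overlap (log2 difference 0.83, SE 0.25, edgeR adjusted p = 0.181), and was the 1 gene of the 38 with all mice at 8°C above those at 30°C (9.33% of all genes). Spi1 was at 7.52, 5.30 and 6.29 CPM against 4.47, 4.88 and 4.06 CPM, again without overlap and below (9% of all genes), by a log2 difference close to that in wild-type mice (-0.51, SE 0.18, adjusted p = 0.236). Lyve1 (0.87, SE 0.44, adjusted p = 0.387) and Cd163 (0.54, SE 0.29, adjusted p = 0.413) overlapped between temperatures. Without replicate 1 of the HY/HY mice at 30°C, 32 of the 38 had higher fitted levels at 8°C and the median was 0.30. The median turned to -0.06 (16 genes higher) without replicate 1 of the mice at 8°C, and to -0.01 (17 higher) without replicate 3 of those at 30°C. Without that replicate 3 the number of all genes called also went from 30 to 461 for higher (2.72%) and from 11 to 203 for lower levels (1.2%), with none of the 38 among them. With the replicate number as a block none of the 38 was called either, although the number of all genes called went to 128 for higher and to 32 for lower levels. Although edgeR called no marker of other cells, their fitted levels differed between the same mice. Levels at 8°C were lower for all 6 monocyte, all 8 B cell and 9 of 10 T cell markers tested (medians -0.28, -0.64 and -0.72). All 6 mast cell markers tested were higher, with a median of 0.30. Most other lists held both signs. The part of these cells in the values of the 38 genes was not tested.

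**Figure D4:**
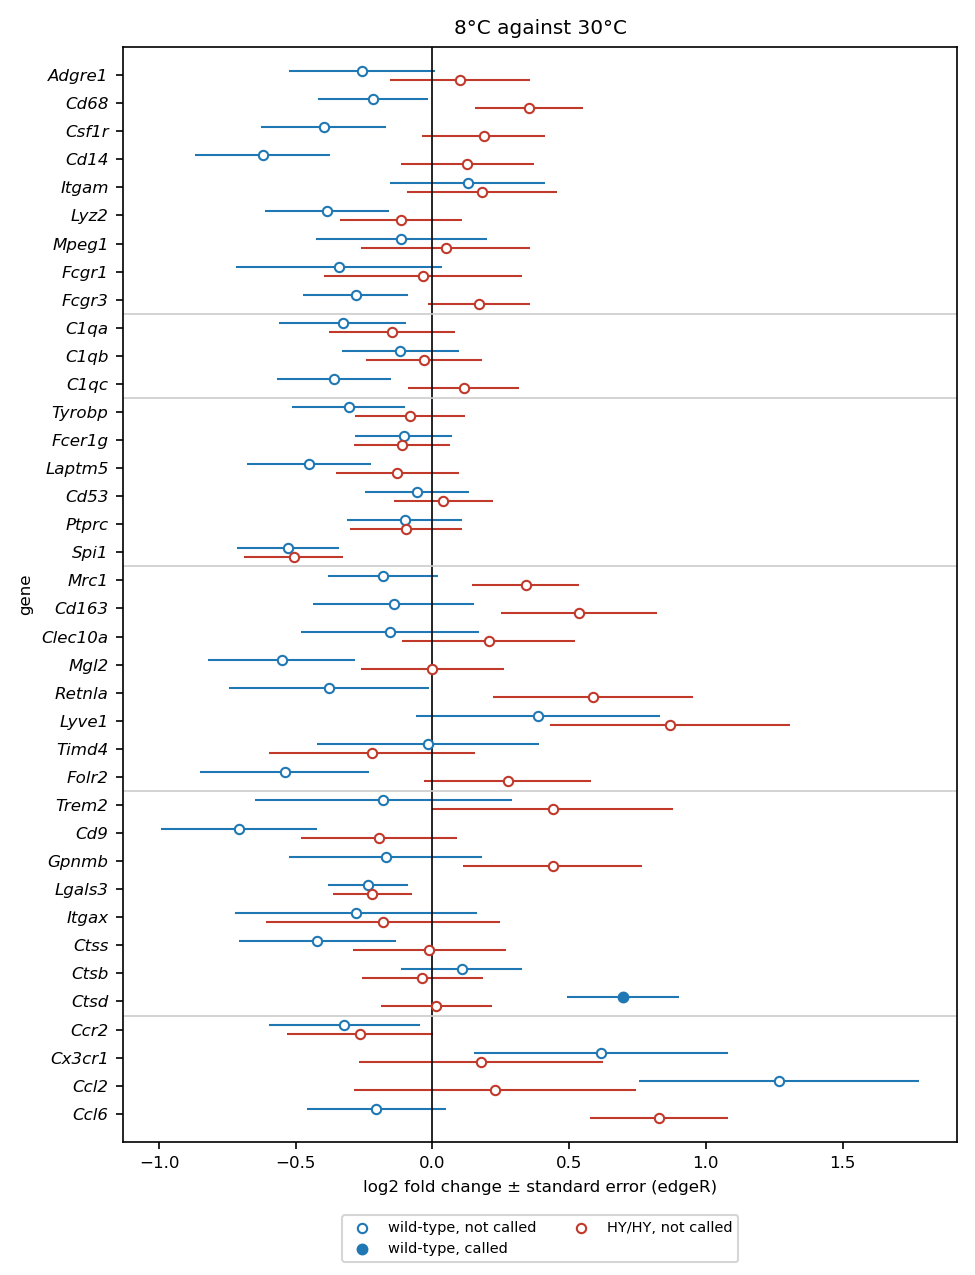
Fitted log2 fold change of 8°C over 30°C for each of the 38 genes in wild-type (blue) and HY/HY mice (red), with standard errors from edgeR; the filled point passed the threshold. In wild-type mice 32 points are left of 0 and Ctsd alone is filled, and in HY/HY mice 21 points are right of 0 and none is filled.

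The difference between the 2 cold responses was tested as an interaction. No gene of the 38 reached an adjusted p below 0.05 in edgeR or DESeq2, where edgeR gave 0.169% of all genes with a positive and 2.07% with a negative interaction. An unadjusted p below 0.05 was found for 1 positive gene (5.39% of all genes) and 1 negative gene (9.61%). Fitted interactions were positive for 32 of the 38 (54.4% of all genes), with a median of 0.31 (0.04 over all genes). Ccl6 had a positive one (1.03, SE 0.36, edgeR adjusted p = 0.189) and Ctsd a negative one (-0.68, SE 0.29, adjusted p = 0.290), and Cd14 (0.75, SE 0.35, adjusted p = 0.340) and Cd68 (0.57, SE 0.28, adjusted p = 0.374) followed. It was thus not shown that the genotype differences at 8°C and 30°C were unequal for any of these genes. With replicate 1 of the thermoneutral HY/HY group left out, the median was 0.59 and Folr2 passed the threshold. The median was 0.13 (25 genes positive) with replicate 3 of that group left out, 0.20 (28 positive) with its replicate 2 left out, and 0.12 (26 positive) with replicate 1 of the cold-exposed HY/HY group left out. Ctsd passed it with replicate 3 of the thermoneutral wild-type group left out.

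The mean log2 CPM of each role shows how the mice compared. For the 9 general macrophage genes it was between 3.23 and 3.45 in wild-type mice at 8°C, between 3.61 and 3.64 in wild-type mice at 30°C, between 3.55 and 4.35 in HY/HY mice at 30°C and between 3.78 and 4.35 in HY/HY mice at 8°C. The resident genes lay between 2.84 and 3.49, between 3.34 and 3.47, between 3.17 and 4.21 and between 3.69 and 4.29 in the same order. At 8°C the HY/HY mice were above the wild-type mice for these 2 roles, for C1q (5.13 to 5.80 against 4.77 to 4.96), for the adaptors (3.57 to 3.83 against 3.05 to 3.34) and for the lipid-associated genes (5.60 to 5.80 against 5.14 to 5.32). For the monocyte and chemokine genes the ranges overlapped, at 2.16 to 2.77 and 1.80 to 2.64.

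**Figure D5:**
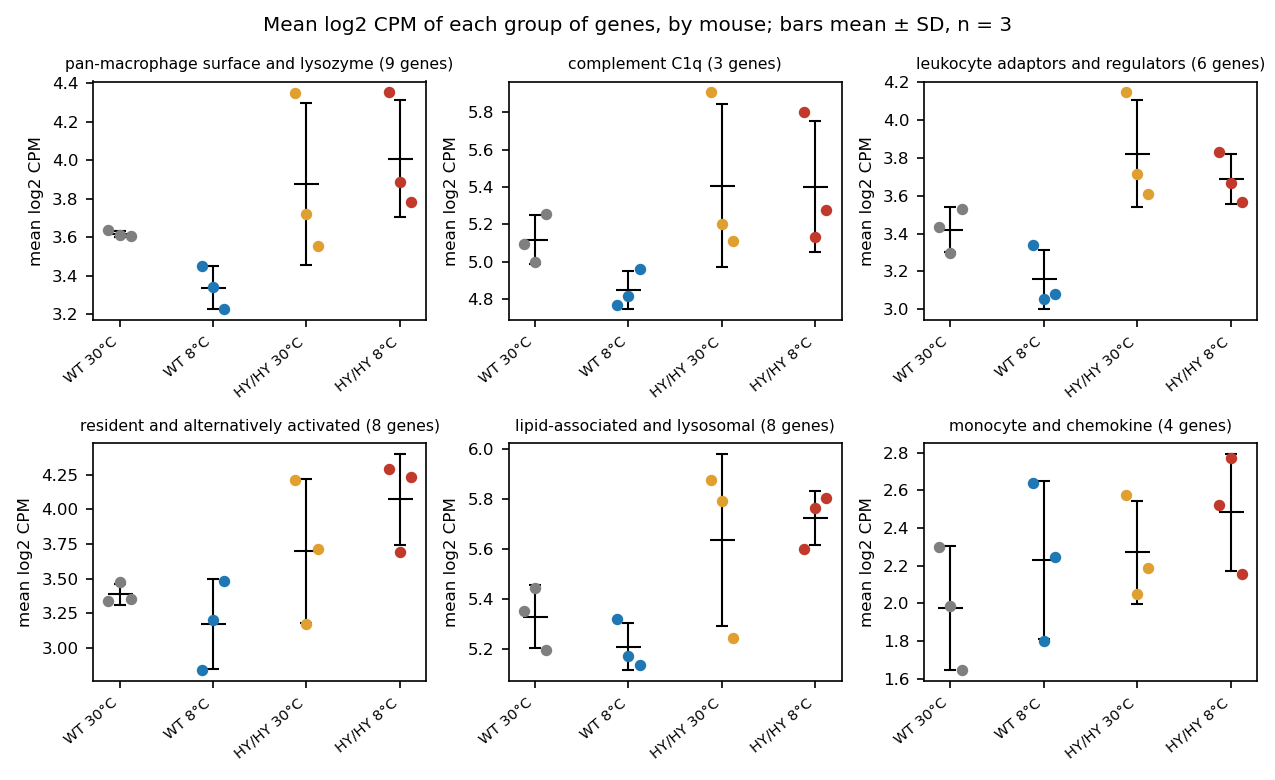
Mean log2 CPM of the genes of each role in each mouse (points), with the group mean and SD (bars, n = 3 per group); the vertical axes do not start at 0 and differ between panels. At 8°C the HY/HY mice are above the wild-type mice in each panel but the last, monocyte and chemokine genes, where the ranges of 1.80 to 2.64 and 2.16 to 2.77 overlap.

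Further genes of macrophages and of the signals that act on them were taken from 7 lists, which share only Csf1r and Ccl2 with the 38. Of 40 other macrophage genes, 37 were tested; at 8°C 31 had higher fitted levels in HY/HY mice (51.3% of all genes), with a median of 0.58. By edgeR 3 were called higher (1.51% of all genes) and none lower (4.42%), and by DESeq2 7 higher (2.45%) and none lower (5.82%); none was lower at an unadjusted p below 0.05. The called genes were the anaphylatoxin receptors C3ar1 (3.28 ± 0.974 CPM in wild-type and 6.87 ± 0.554 CPM in HY/HY mice, SD, n = 3; log2 difference 1.07, SE 0.25, edgeR adjusted p = 0.0254) and C5ar1 (3.31 ± 0.809 and 6.68 ± 0.854 CPM; 1.01, SE 0.27, adjusted p = 0.0425) and the inhibitory Fc receptor Fcgr2b, which is named here because it was the third of 3 called. Over 20 alternatives these calls were lost in 5, 8 and 7, all of them fits without 1 library, with adjusted p up to 0.0994, 0.166 and 0.158; C3ar1 was lost without replicate 2 or 3 of the wild-type or any 1 of the HY/HY mice at 8°C, C5ar1 without any 1 mouse at 8°C and, at 30°C, wild-type replicate 2 or HY/HY replicate 1, and Fcgr2b without any 1 mouse at 8°C but HY/HY replicate 2 and, at 30°C, wild-type replicate 1 or 2. At 30°C 29 of the 37 had higher fitted levels in HY/HY mice (49.0% of all genes) and none was called by edgeR, with 7 higher (8.36% of all genes) and none lower (10.3%) at an unadjusted p below 0.05 and 2 called higher by DESeq2 (2.16%).

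Of 17 growth factors, receptors and transcription factors of macrophages, 16 were tested; at 8°C 10 had higher fitted levels in HY/HY mice (51.3% of all genes), with a median of 0.11, and edgeR called 2 higher (1.51% of all genes) and 1 lower (4.42%), as many as DESeq2 (2.45% and 5.82% of all genes). Maf, a transcription factor of resident macrophages that other cells also express, went from 21.6 ± 0.775 CPM in wild-type to 43.9 ± 4.62 CPM in HY/HY mice (SD, n = 3) and rose by 1.02 (SE 0.19, edgeR adjusted p = 0.00903). Cebpb, a transcription factor of myeloid cells and adipocytes, was at 92.8 ± 35.5 CPM in wild-type mice at 8°C, at 25.4 ± 0.252 CPM in HY/HY mice at 8°C and at 23.3 ± 0.500 and 24.8 ± 9.13 CPM at 30°C. It was lower in HY/HY mice at 8°C by a log2 fold change of -1.87 (SE 0.29, adjusted p = 0.00356). The third of the called genes was Csf1r itself. Of 14 monocyte chemoattractants and their receptors, 13 were tested, 10 had higher fitted levels in HY/HY mice at 8°C and 1 was called higher by edgeR (1.51% of all genes), the chemokine Ccl9, at 7.75 ± 1.26 CPM in wild-type and 16.3 ± 3.34 CPM in HY/HY mice at 8°C (1.07, SE 0.24, adjusted p = 0.0203). The call of Ccl9 was lost in 4 of 20 alternatives, those without replicate 1 or 2 of the wild-type or replicate 1 or 3 of the HY/HY mice at 8°C (adjusted p up to 0.0852), and DESeq2 called 2 genes of this list higher (2.45% of all genes).

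Lists of macrophage activation gave no calls between genotypes at 8°C in edgeR. For the type 2 cytokine axis, 9 of 14 genes were tested, 8 had higher fitted levels in HY/HY mice with a median of 0.35, and none had an unadjusted p below 0.05. For pro-inflammatory activation, 11 of 16 were tested, 6 had higher levels with a median of 0.06, and 1 was higher and 2 were lower at an unadjusted p below 0.05, where 9.34% and 13% of all genes were. Of genes that clear noradrenaline, 3 of 4 were tested, and 1 was higher at an unadjusted p below 0.05. DESeq2 called 1 gene of the pro-inflammatory list lower (5.82% of all genes) and none of the type 2 cytokine or noradrenaline lists. Among 26 genes of lysosomes and lipid handling, 18 had higher fitted levels at 8°C (51.3% of all genes) with a median of 0.26. Of these 26, edgeR called 3 higher (1.51% of all genes) and 2 lower (4.42%), and DESeq2 called 4 higher (2.45%) and 2 lower (5.82%). Atp6v0d2, a subunit of the lysosomal proton pump, went from 0.382 ± 0.0665 to 1.84 ± 0.395 CPM (SD, n = 3, log2 difference 2.25, SE 0.33, edgeR adjusted p = 0.00297). This fold rests on few reads, since the wild-type mice at 8°C were between 0.321 and 0.453 CPM. Apoe, the apolipoprotein E of lipid export, went from 1160 ± 27.2 to 2375 ± 206 CPM (1.03, SE 0.17, adjusted p = 0.00431). Which cells of the whole tissue carried the differences in this list was not tested. At 30°C 23 of these 26 genes had higher fitted levels in HY/HY mice (49.0% of all genes). There edgeR called Fabp5 higher (0.562% of all genes) and DESeq2 called 4 higher (2.16%). At an unadjusted p below 0.05 in edgeR, 10 were higher (8.36% of all genes) and none was lower (10.3%).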

How the data were processed

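The authors deposited a table of whole-number read counts per gene for each mouse, with 1 unstranded column and 2 columns that each hold a single strand. Per the study's methods, libraries were made with a TruSeq kit and sequenced on a HiSeq instrument as paired reads of 50 bases, trimmed with fastp and aligned with STAR to mm10 (GRCm38); gene IDs match GENCODE M25. Counting was on pairs placed once, so genes with near-identical copies are undercounted. The second-strand column was used, since it held 95.5% to 96.2% of stranded pairs. The 4 rows that name no gene were left out of the library sizes; of all pairs, 36.5% to 44.2% were assigned to genes, 25.1% to 28.8% were unaligned, 26.7% to 32.2% were placed in several positions and 1.99% to 3.20% lay outside genes. Depth was 13592629 to 26352081 counts per library. Symbols came from the annotation tables by gene ID for 32589 of 55401 IDs, 2613 of them updated to current symbols, and coordinates and sequences from RefSeq (GRCm38.p6). Exon lengths were those of the older GENCODE M1 annotation.

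Counts were tested with edgeR 4.0.16 in R 4.3.3 (filterByExpr, TMM, quasi-likelihood fit with 4 group means over all 12 libraries, 8 residual degrees of freedom, Benjamini-Hochberg adjustment over 16540 genes). Called genes had an adjusted p below 0.05 together with a fold above 1.5 or below 0.67, and an interaction by its adjusted p alone. The code was tested on simulated data. Alternatives were DESeq2 1.42.0, other scalings, filters, strands and sample sets, each library left out in turn, and the replicate number as a block. For the temperatures in HY/HY mice, same-numbered mice deviated together (correlations of 0.11, 0.20 and 0.30), although nothing in the labels ties them. P-values set a difference between groups against the spread between mice, estimated over the 4 groups together.

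The 38 genes, their roles, the other lists and the markers were chosen with earlier results of these data known. Except over both temperatures, test values of the 38 are given for called genes and for the 4 with the smallest p in a comparison. Over both temperatures they are given for Mrc1, Cd53 and Gpnmb, which had the smallest p, and for Fcgr3 and C1qc. For the other lists they are given for at most the 2 genes with the smallest p.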

Additional observations from a re-analysis of the deposited data

Results flagged for a closer look

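None of the 38 macrophage genes passed the threshold of the interaction test. Of the further lists, edgeR gave a negative interaction to 1 of 16 growth factors and receptors and to 1 of 26 lysosome and lipid genes tested. It gave none to the 37, 13, 11, 9 and 3 genes tested in the other lists, and gave a negative interaction to 2.07% of all genes tested. DESeq2 gave more, with 1 positive and 5 negative interactions among 26 genes of lysosomes and lipid handling and 1 negative each among the growth factors and receptors and the genes of noradrenaline clearance, where it gave 0.574% of all genes a positive and 4.32% a negative one. Cebpb, a transcription factor of myeloid cells and adipocytes, had an interaction of -1.96 on the log2 scale (SE 0.40, edgeR adjusted p = 0.0310; range over 19 alternatives 0.000221 to 0.0900): it rose with cold in wild-type mice by 1.99 and was at 24.8 ± 9.13 and 25.4 ± 0.252 CPM (SD, n = 3) in HY/HY mice at 30°C and 8°C. Lipa, the lysosomal acid lipase, had an interaction of -0.972 (SE 0.18, edgeR adjusted p = 0.0218; range 9.79e-05 to 0.0650), with 36.5 ± 3.10 and 103 ± 10.2 CPM in wild-type mice and 45.8 ± 6.63 and 65.8 ± 5.67 CPM in HY/HY mice at 30°C and 8°C. Both genes are expressed in adipocytes as well as in macrophages, and which cells carried the difference was not tested. The interaction passed the threshold in 11 of 19 alternatives for Cebpb and in 13 of 19 for Lipa, and was lost in 8 and 6 fits without 1 library.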

How the results depend on the processing

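Of the 36 differences of single genes refitted under the alternatives none turned its sign, and 73 of the refitted values lost and 17 gained a call. Signs of the other genes of the 38 did turn: higher fitted levels in HY/HY mice at 30°C were found for 33 genes, for 25 without replicate 1 of that group and for 35 without replicate 2, and higher levels with cold in HY/HY mice for 21, for 32 without replicate 1 at 30°C, for 16 without replicate 1 at 8°C and for 15 with library totals. Between genotypes at 8°C the 7 genes called higher became 13 with DESeq2 (2.45% of all genes) and with no filter on low counts (1.14%), 15 in a fit of the 6 compared libraries alone (4.18%), and 11 with the replicate block (2.4%); leaving out each library in turn gave 2 to 14 (0.254% to 2.41% of all genes). Leaving out wild-type replicate 2 and HY/HY replicate 1 at 30°C together, chosen after seeing the data, gave 15 (1.8% of all genes). Keeping those of the 38 whose mean count reached 100 (29 genes), also chosen after seeing the data, gave 7. Without that limit 1.51% of all genes were called higher, and the share with it is not given here. At 30°C none (0.562% of all genes) became 3 with DESeq2 (2.16%) and with no filter (0.916%), 2 with the replicate block (1.3%) and 0 to 1 with each library left out (0.0296% to 1.61%). In wild-type mice in the cold, Ctsd alone became 0 genes called higher with library totals (6.39% of all genes) and 0 to 1 with each library left out (8.07% to 11.1%). None called lower became 8 with library totals (25.1% of all genes), 2 in a fit of the compared libraries alone (7.65%), 2 with the replicate block (8.6%) and 0 to 2 with each library left out (3.08% to 9.06%). For the interaction, leaving out each library gave 0 to 1 positive (0.0118% to 0.355% of all genes) and 0 to 1 negative (0.378% to 3.6%). With library totals the median log2 difference of all genes between genotypes at 8°C was 0.15 in place of 0.01, and that of the 38 was 0.68. Highest adjusted p over 20 alternatives were 0.0597 for Csf1r, 0.0707 for Cd53, 0.0932 for Cd163, 0.102 for Fcgr3 and 0.140 for C1qc (edgeR, each with a library of the 8°C groups left out). Correlations between same-numbered mice of the other pairs of groups ranged from -0.07 to 0.35, and their replicate numbers were not taken as pairs. Wild-type mice at 8°C and HY/HY mice at 30°C also had only positive ones (0.06, 0.01 and 0.22). Low counts limit Trem2, Timd4, Cx3cr1 and Ccl2, with means of 21.1 to 35.0 counts.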
